A study of Mus musculus with 9 samples.

Results

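The sinusoidal endothelial markers are 10 genes, Cdh5, Pecam1, Kdr, Flt4, Tek, Emcn, Stab2, Eng, Egfl7 and Plvap, taken by gene name from the 37316 gene names on the array. They are represented by 17 of its 56605 probes. Expression was measured on 1-colour Agilent arrays in megakaryocyte samples (mMKs) from the bone marrow of male C57BL/6 mice, in 3 groups of 3 arrays. Ctrl mice were sham-irradiated, and the other groups received a single total body dose of 5 Gy of γ-rays (IR) and were taken at 1 or 3 days post IR (1 dpi and 3 dpi). The strain is taken from the methods, and the labels give neither genotype nor age. The methods describe that cells carrying CD41 and then those carrying CD42d were selected, and the labels describe the RNA as coming from sorted mMKs, with different donors for each experiment.

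Sinusoids are the wide, thin-walled vessels of the marrow, and megakaryocytes lie against them and shed platelets through their wall. Their endothelium carries junction proteins shared by all vessels, receptors for VEGF and angiopoietins that govern its growth and survival, and scavenger receptors typical of sinusoids. Several of these genes are also known in blood cells, Pecam1 and Eng among them, so that a bulk mMK sample can hold their RNA from more than 1 cell type.

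From each log2 intensity the 75th percentile of all non-control spots of its array was subtracted, which is called scaled log2 intensity here. A value of 0 therefore equals that percentile, which was 10.03, 10.62 and 10.66 on the Ctrl arrays, 9.33, 9.45 and 9.43 at 1 dpi and 10.37, 10.55 and 10.53 at 3 dpi, in the order of the replicate numbers. The 1 dpi arrays were thus the dimmest before scaling. On Ctrl replicate 1 the scanner software placed 69.1% of spots well above background, against 79.5% and 80.8% on the other Ctrl arrays, 72.3% to 75.6% at 1 dpi and 81.6% to 81.8% at 3 dpi. Ctrl replicate 1 lay on a slide of its own among these arrays, and the other 8 arrays shared a slide and a scan. The part of these differences in the results was not tested by itself. The member counts and medians and the fold changes of members and named genes were refitted with the slide as a block and without Ctrl replicate 1. As that array was alone on its slide, both refits take it out of the comparisons and are not separate checks. With the slide as a block 4, 6 and 1 members were called in the 3 comparisons, beside 3561, 2372 and 2812 of all genes. A probe was used if some group had it well above background on each of its 3 arrays, each gene was read from its brightest such probe, and limma tested 29410 genes. Genes count as called where the adjusted p (Benjamini-Hochberg) was under 0.05 and the change was 2-fold or more. All 10 members were tested, and 9 of them were well above background on all 9 arrays. The exception, Flt4, passed through the 3 dpi group, where it was highest. With 3 arrays in a group, exact permutation could not reach a p below 0.10.

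At 1 dpi, 4 of the 10 members were called higher than in Ctrl (Cdh5, Plvap, Kdr and the dim Flt4, which was well above background on only 2 of 3 arrays of either group) and 0 lower, beside 12.3% of all genes called higher, 2.87% called lower and 15.2% called in either direction. The median log2 fold change of the members was 0.67, against 0.25 over all genes, a difference of 0.42. With array median scaling the members' median was 0.35, but that scaling moves all genes alike and leaves the difference as it was. At 3 dpi, 6 of 10 members were called higher than in Ctrl (Cdh5, Flt4, Plvap, Stab2, Kdr and Emcn) and 0 lower, beside 6.98% and 1.82% of all genes in these directions and 8.80% in either. Their median was 1.68 (0.97 with normexp background correction and 1.35 without Flt4), against 0.11 over all genes. Between 3 and 1 dpi, 1 of 10 members, Stab2, was called higher and 0 lower, beside 3.97%, 4.82% and 8.80% of all genes, and the medians were 0.70 (0.39 with normexp) and -0.11. With only probes well above background on every array, which leaves out Flt4, 3, 5 and 1 of 9 members were called in these comparisons. Of the 24040 genes tested in that setting, 3133, 1730 and 1776 were called. Both comparisons with Ctrl share the Ctrl arrays, and the comparison between the time points shares its arrays with them.

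The scaling left the median of all genes away from 0, so changes are also given relative to it. At 1 dpi, 2 members (Cdh5 and Plvap) had an adjusted p under 0.05 and lay at least 2-fold above the median of all genes, and 1 member (Tek) lay as far below it. At 3 dpi 6 members lay above it by that measure and 0 below, and between 3 and 1 dpi 3 lay above (Stab2, Flt4 and Tek, although with normexp background correction the direction of Flt4 turned and Tek was at 0.20) and 0 below. Of all 29410 genes, 2252 lay above and 1686 below by that measure at 1 dpi. The counts were 1848 and 704 at 3 dpi, and 1384 and 1061 between 3 and 1 dpi. With quantile normalization the 1 dpi calls were 3 higher and 1 lower among the members, and with array median scaling 2 higher and 1 lower, the lower gene being Tek in each case. Of all 29410 genes, 1943 were called higher and 1510 lower with quantile normalization, and 1993 and 2087 with array median scaling. Of all genes called at 1 dpi, 81.1% were higher, against 56.3% with quantile normalization and 48.8% with array median scaling. Between 3 and 1 dpi the share was 45.2%, against 62.9% and 67.2%, and it was lower with normexp (23.6%), without a filter (26.7%) and with the position of the arrays as a block, an alternative chosen after the values were seen (28.6%).

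**Figure D1:**
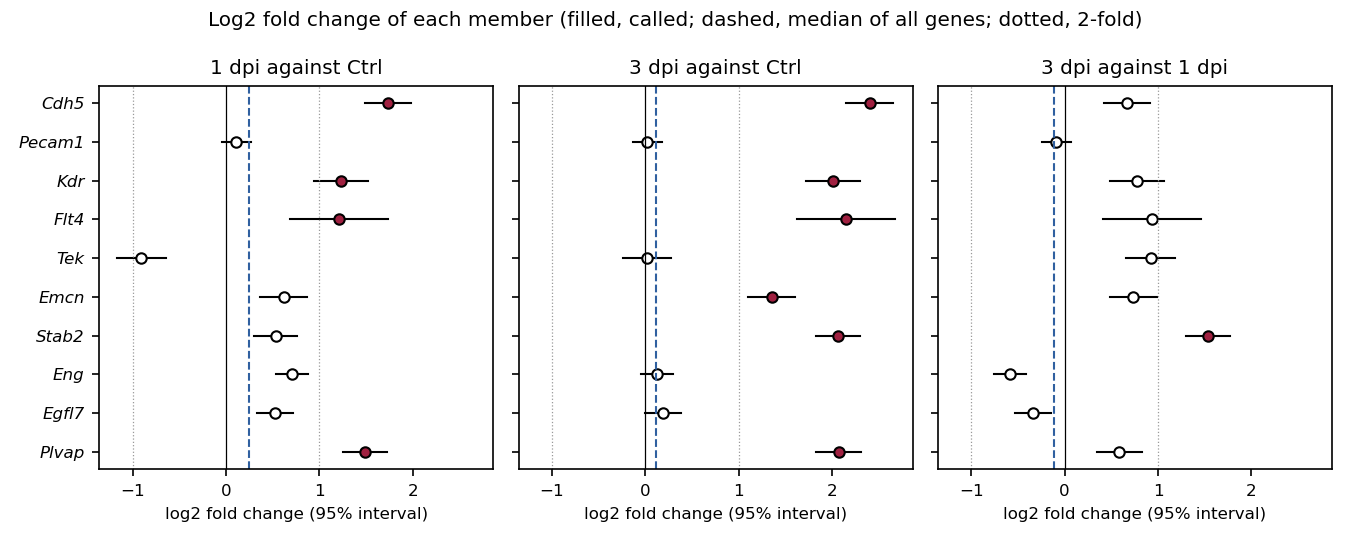
Log2 fold change of each member with its 95% interval in the 3 comparisons (filled points, called; dashed line, median of all genes; dotted lines, a 2-fold change). At 3 dpi, 6 members lay between 1.35 and 2.40 and the other 4 between 0.02 and 0.19.

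**Figure D2:**
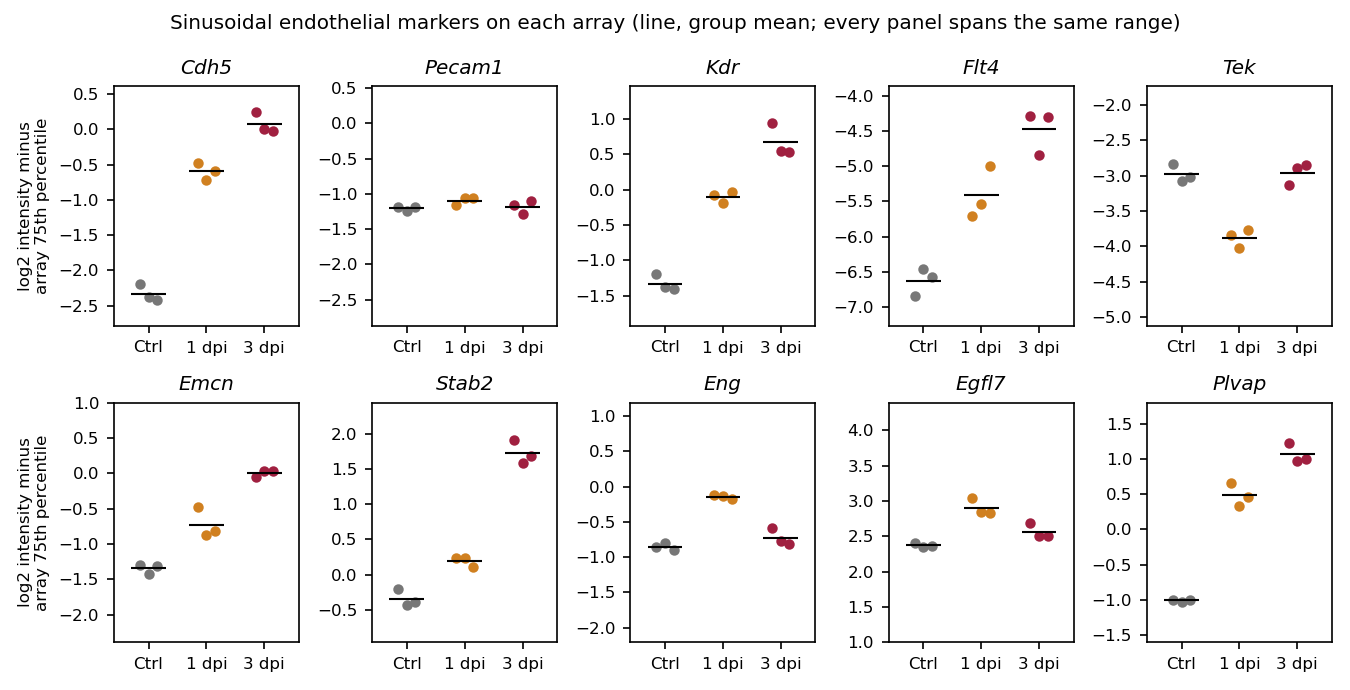
Scaled log2 intensity of each member on each of the 9 arrays, with the group mean as a line. In Cdh5, Kdr, Flt4, Emcn, Stab2 and Plvap the groups are ordered Ctrl, 1 dpi, 3 dpi without overlap (with normexp background correction Flt4 was lower at 3 than at 1 dpi), Eng and Egfl7 are highest at 1 dpi, and Tek is lowest there. The share of all genes whose groups do not overlap was not counted. By limma, 55.9%, 32.0% and 44.6% of all genes had an adjusted p under 0.05 in the 3 comparisons.

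Cdh5 encodes VE-cadherin, the adhesion molecule of endothelial adherens junctions, and its probe lies at chr8:106668159-106668218 (mm9, plus strand). Its scaled log2 intensity was -2.19, -2.38 and -2.42 in Ctrl, -0.48, -0.71 and -0.59 at 1 dpi, and 0.25, 0.00 and -0.03 at 3 dpi. The groups did not overlap, with all Ctrl arrays low and all 3 dpi arrays high. The log2 fold change against Ctrl was 1.74 at 1 dpi (adjusted p = 1.4e-05, SE 0.107) and 2.40 at 3 dpi (adjusted p = 2.6e-06, SE 0.107), or 3.33-fold and 5.29-fold. From 1 to 3 dpi it was 0.67 (adjusted p = 0.00192), under the 2-fold minimum. In a bulk sample such as these, fewer or more cells of a type and less or more RNA per cell cannot be told apart.

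Pecam1, an adhesion molecule of endothelial cell contacts that platelets and megakaryocytes also carry, gave another picture (chr11:106540864-106540923, mm9, minus strand). Its values were -1.18, -1.25 and -1.19 in Ctrl, -1.16, -1.06 and -1.06 at 1 dpi, and -1.16, -1.28 and -1.11 at 3 dpi. The 3 dpi arrays overlapped both other groups, and the 1 dpi arrays lay just above those of Ctrl. By limma the log2 fold change was 0.11 at 1 dpi (95% interval -0.05 to 0.27, adjusted p = 0.186) and 0.02 at 3 dpi (-0.13 to 0.18, adjusted p = 0.809). The intervals hold changes of either sign, and the upper limit of each is well under 2-fold.

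Kdr encodes the main signalling receptor for VEGF on endothelium. The probe that stands for it (chr5:76329309-76329368, mm9, minus strand) read -1.20, -1.38 and -1.41 in Ctrl, -0.07, -0.19 and -0.03 at 1 dpi, and 0.95, 0.54 and 0.54 at 3 dpi. The groups did not overlap, and 3 dpi replicate 1 was the highest array. The log2 fold change was 1.23 at 1 dpi (adjusted p = 0.000157, SE 0.125) and 2.01 at 3 dpi (adjusted p = 1.5e-05, SE 0.125), and 0.77 between 3 and 1 dpi (adjusted p = 0.00201). With array median scaling the value at 1 dpi was 0.92, which ended its call there. The other 2 probes of Kdr were well above background on 0 of 9 arrays and were not tested.

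Flt4 encodes the VEGF receptor that binds VEGF-C and marks sinusoidal and lymphatic endothelium (chr11:49465646-49465705, mm9, plus strand). Its probe was dim, well above background on 2 of 3 Ctrl arrays, 2 of 3 arrays at 1 dpi and 3 of 3 at 3 dpi, with values of -6.84, -6.45 and -6.58, then -5.71, -5.54 and -5.00, then -4.29, -4.84 and -4.30. All Ctrl arrays were lowest and all 3 dpi arrays highest, without overlap. Against Ctrl the log2 fold change was 1.21 at 1 dpi (adjusted p = 0.00297, SE 0.226) and 2.15 at 3 dpi (adjusted p = 0.000252, SE 0.226). For a bound, Ctrl arrays were raised to the lowest signal of probes well above background where they lay under it. By these scaled values Flt4 was at least 3.84-fold higher at 3 dpi than in Ctrl. That bound does not hold with normexp background correction, where the log2 fold change was 0.67. No such bound holds at 1 dpi, where 1 array of that group was itself not well above background. Between 3 and 1 dpi the log2 fold change without such raising was 0.94 (adjusted p = 0.0119), and the bound with the 1 dpi arrays raised, which was not tested, at least 1.83-fold higher, but with normexp background correction the direction turned (-0.32, adjusted p = 0.0462). Its call at 1 dpi was lost with quantile normalization (log2 fold change 0.63), array median scaling (0.89), normexp background correction (0.99) and the log2 table the authors deposited (0.63), and its call at 3 dpi was lost with normexp (0.67).

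Tek encodes the receptor for the angiopoietins, which steadies endothelium and is also found on blood stem cells (chr4:94540861-94540919, mm9, plus strand). It read -2.83, -3.08 and -3.02 in Ctrl, -3.84, -4.03 and -3.77 at 1 dpi, and -3.13, -2.89 and -2.85 at 3 dpi. All 1 dpi arrays lay below all others, and those of Ctrl and 3 dpi overlapped. The log2 fold change at 1 dpi was -0.91 (adjusted p = 0.000404, SE 0.112), under the 2-fold minimum, and -1.15 relative to the median of all genes. It was called lower at 1 dpi with quantile normalization (-1.20), array median scaling (-1.22), the deposited log2 table (-1.20) and the position of the arrays as a block (-1.03), while with normexp background correction it was at -0.20 (adjusted p = 0.0637) and was not called. At 3 dpi it was 0.02 against Ctrl (95% interval -0.24 to 0.28, adjusted p = 0.914), and between 3 and 1 dpi 0.92 (adjusted p = 0.000532), or 0.20 with normexp (adjusted p = 0.0669).

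Eng encodes endoglin, a co-receptor for BMP and TGF-beta ligands on endothelium. The brighter of its 2 probes (chr2:32537268-32537327, mm9, plus strand) read -0.86, -0.80 and -0.90 in Ctrl, -0.12, -0.14 and -0.17 at 1 dpi, and -0.59, -0.78 and -0.81 at 3 dpi. The 1 dpi arrays lay above all others, and those of Ctrl and 3 dpi overlapped. For this probe the log2 fold change was 0.71 at 1 dpi (adjusted p = 0.000176, SE 0.0736), 0.13 at 3 dpi (95% interval -0.04 to 0.30, adjusted p = 0.227) and -0.58 between 3 and 1 dpi (adjusted p = 0.000661), with the 2-fold minimum reached in 0 of the 3 comparisons. Its other probe gave 0.40 (adjusted p = 0.0984) at 1 dpi and -0.13 (adjusted p = 0.625) at 3 dpi, so that the probes differed in sign at 3 dpi.

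Emcn encodes endomucin, a mucin-like surface protein of capillary and sinusoidal endothelium (chr3:137093811-137093870, mm9, plus strand). It read -1.30, -1.43 and -1.31 in Ctrl, -0.48, -0.88 and -0.81 at 1 dpi, and -0.05, 0.03 and 0.04 at 3 dpi. Ctrl was lowest and 3 dpi highest on every array, without overlap. Its log2 fold change was 0.62 at 1 dpi (adjusted p = 0.00215, SE 0.108), under the 2-fold minimum, and 1.35 at 3 dpi (adjusted p = 5.8e-05, SE 0.108), or 2.56-fold.

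Stab2 encodes a scavenger receptor for hyaluronan that is typical of sinusoidal endothelium. Its brightest probe (chr10:86303982-86304041, mm9, minus strand) read -0.21, -0.43 and -0.38 in Ctrl, 0.23, 0.24 and 0.11 at 1 dpi, and 1.91, 1.59 and 1.68 at 3 dpi. The groups did not overlap, and the step from 1 to 3 dpi was the larger of both. The log2 fold change was 0.53 at 1 dpi (adjusted p = 0.00317, SE 0.101), 2.07 at 3 dpi (adjusted p = 4.3e-06, SE 0.101) and 1.53 between 3 and 1 dpi (adjusted p = 4.1e-05, SE 0.101). All 5 probes of Stab2 were called higher at 3 dpi, with log2 fold changes from 1.95 to 2.71, and all 5 between 3 and 1 dpi, from 1.11 to 1.57, where 2 of them lost the call with normexp background correction (0.72 and 0.80) and another without 3 dpi replicate 1 (0.99). At 1 dpi the probes disagreed about the call, since 2 of 5 were called and their values ran from 0.53 to 1.15, and with quantile normalization (0.72 and 0.74), array median scaling (0.84 and 0.78) or normexp (0.99 and 0.96) neither of these 2 was called.

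**Figure D3:**
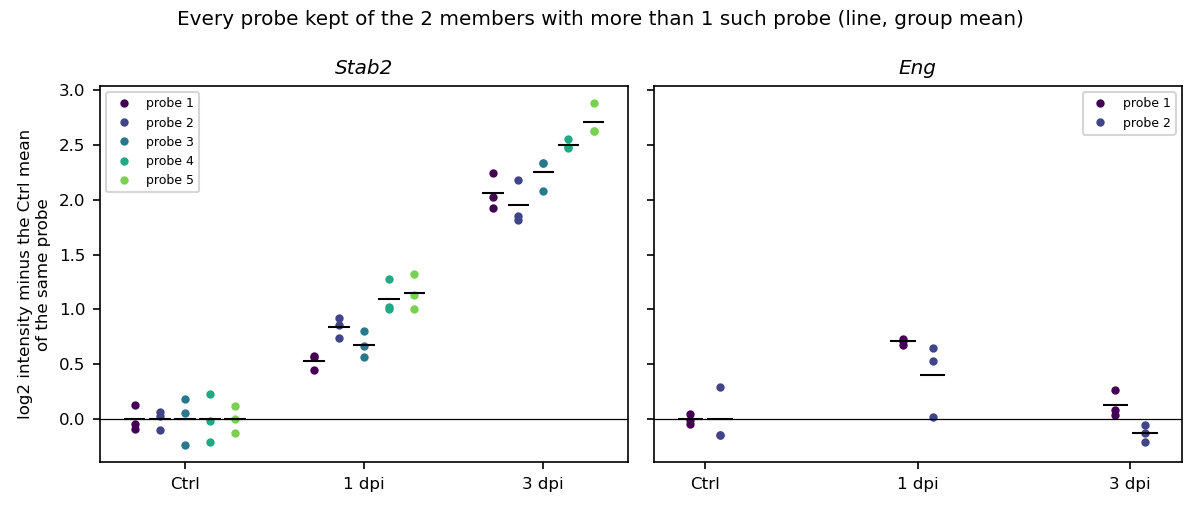
Log2 intensity of every kept probe of Stab2 (5 probes) and Eng (2 probes) on each array, minus the Ctrl mean of the same probe, with group means as lines. All probes of Stab2 are highest at 3 dpi, while both probes of Eng have their highest mean at 1 dpi.

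Plvap encodes the protein of the diaphragms that span endothelial fenestrae (chr8:74021877-74021936, mm9, minus strand). It read -0.99, -1.03 and -0.99 in Ctrl, 0.66, 0.33 and 0.46 at 1 dpi, and 1.23, 0.98 and 1.00 at 3 dpi. Every 1 dpi array lay above every Ctrl array and below every 3 dpi array. Its log2 fold change was 1.49 at 1 dpi (adjusted p = 2.5e-05, SE 0.103) and 2.07 at 3 dpi (adjusted p = 4.7e-06, SE 0.103), and 0.58 between 3 and 1 dpi (adjusted p = 0.00298).

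Egfl7 encodes a protein that endothelial cells secrete into their matrix (chr2:26448142-26448201, mm9, plus strand). It read 2.40, 2.35 and 2.37 in Ctrl, 3.04, 2.84 and 2.83 at 1 dpi, and 2.69, 2.51 and 2.50 at 3 dpi. The groups did not overlap, and the 1 dpi arrays were highest. The log2 fold change was 0.53 at 1 dpi (adjusted p = 0.00136, SE 0.0831), 0.19 at 3 dpi (adjusted p = 0.126) and -0.34 between 3 and 1 dpi (adjusted p = 0.0134), under the 2-fold minimum throughout.

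The promoter table used here, made from RefSeq (GRCm38.p6), held 7 of the 10 members and lacked Cdh5, Pecam1 and Plvap. The 250 bases before the start of Kdr, Flt4, Emcn and Stab2, which were called higher at 3 dpi, and of Tek, which was lowest at 1 dpi, are shown 5′ to 3′ on the strand of the gene. Capitals mark CAGGAA and CCGGAA in either orientation, as cores bound by ETS factors, a family known to act in endothelium. Flt4 has 0 of them, and other sequences that ETS factors can bind were not searched. Kdr lies at chr5:75978456-75978705 (minus strand), Flt4 at chr11:49609429-49609678 (plus), Emcn at chr3:137340828-137341077 (plus), Stab2 at chr10:87007943-87008192 (minus) and Tek at chr4:94739039-94739288 (plus).
Kdr: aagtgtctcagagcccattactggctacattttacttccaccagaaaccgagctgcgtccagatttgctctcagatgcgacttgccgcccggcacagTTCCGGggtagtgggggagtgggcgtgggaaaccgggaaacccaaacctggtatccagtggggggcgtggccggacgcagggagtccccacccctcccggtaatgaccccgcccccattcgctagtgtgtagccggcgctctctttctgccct
Flt4: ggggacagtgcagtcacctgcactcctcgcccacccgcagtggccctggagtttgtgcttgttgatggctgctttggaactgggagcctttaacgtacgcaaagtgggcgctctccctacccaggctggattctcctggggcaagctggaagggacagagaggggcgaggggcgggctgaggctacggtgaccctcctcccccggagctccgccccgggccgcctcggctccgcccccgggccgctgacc
Emcn: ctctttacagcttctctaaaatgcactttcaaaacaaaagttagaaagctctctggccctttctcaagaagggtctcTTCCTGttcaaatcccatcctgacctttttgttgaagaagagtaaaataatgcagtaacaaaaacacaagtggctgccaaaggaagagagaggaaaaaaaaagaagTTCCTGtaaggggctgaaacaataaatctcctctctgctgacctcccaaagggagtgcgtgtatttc
Stab2: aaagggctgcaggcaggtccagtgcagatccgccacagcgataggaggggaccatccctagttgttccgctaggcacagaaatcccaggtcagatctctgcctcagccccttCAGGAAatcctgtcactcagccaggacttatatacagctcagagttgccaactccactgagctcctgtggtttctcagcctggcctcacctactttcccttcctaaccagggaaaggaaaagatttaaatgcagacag
Tek: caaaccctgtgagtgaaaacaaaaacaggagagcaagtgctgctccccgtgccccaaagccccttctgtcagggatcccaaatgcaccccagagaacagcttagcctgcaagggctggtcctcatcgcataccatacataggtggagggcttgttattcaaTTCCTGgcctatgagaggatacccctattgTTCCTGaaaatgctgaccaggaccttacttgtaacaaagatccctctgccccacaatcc

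The ETS core CAGGAA occurred in 5 of the 9 windows of these 7 members (Tek, Emcn, Stab2 and 2 of the 3 starts of Egfl7) and in 25.7% of all 32851 promoters of the table. The other ETS core searched, CCGGAA, occurred in 1 of the 9 windows (Kdr) and in 12.0%. The FOX core TGTTTA was in 0 of the 9 and in 12.0% of all promoters. For the GATA core AGATAA the share of all promoters was 9.99%, again with 0 of the 9, and for the SOX core ACAATG it was 10.69%, with 0 of the 9. Emcn and Tek held 2 matches of CAGGAA each, although the first was called higher at 3 dpi and the other was not. A match is a description of the letters, not a site or a cause.

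Over the 9 arrays, the genes most alike to Cdh5 by Pearson correlation among all genes tested were Efemp2 (r = 0.999), Evc2 (0.999), Niban2 (0.998), Slc7a7 (0.998) and Snx8 (0.998). Those most alike to Stab2 were Sh3pxd2a (0.999), Spic (0.996), Smagp (0.996), Fndc7 (0.996) and Pltp (0.995). The arrays fall into 3 groups, so these values mostly describe the order of the group means, and no member was among the genes most alike to either.

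Other endothelial genes were taken from lists of known markers. At 1 dpi, 11 of 25 other pan-endothelial genes were called higher and 2 lower, and at 3 dpi 13 and 3, with medians of 0.86 and 1.24. Their summed intensity nevertheless went down, to 0.926-fold and 0.760-fold of Ctrl, with Cd34 as the brightest gene. Mmrn2, a matrix protein of vessels, rose by a log2 fold change of 2.12 at 1 dpi and 2.63 at 3 dpi, and the transcription factor Sox18 by 1.41 and 2.29. Cldn5, of endothelial tight junctions, was at 0.86 at 1 dpi and rose by 2.08 at 3 dpi. Against these, Cd34, shared with blood progenitors, fell by 1.52 at 3 dpi, and Erg, an ETS factor of endothelium and megakaryocytes, was at -0.96 (adjusted p = 2.4e-05), under the 2-fold minimum except with array median scaling (-1.08). Tie1, the partner of the Tek receptor, was at 0.17 and -0.28 and was not called.

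Of 12 other sinusoidal genes, 3 were called higher at 1 dpi and 6 at 3 dpi, with 0 lower, and medians of 0.23 and 1.27. Stab1, the relative of Stab2, read -1.22, -1.39 and -1.34 in Ctrl, 2.37, 2.32 and 2.32 at 1 dpi, and 2.87, 2.61 and 2.65 at 3 dpi. Its log2 fold change was thus 3.65 at 1 dpi (adjusted p = 2.4e-07) and 4.03 at 3 dpi (adjusted p = 1.8e-07). Maf rose by 1.42 (0.96 and not called with the mean of all probes) and 2.91, Gpr182 was at 0.68 (1.09 and called with the mean of all probes) and rose by 2.33 at 3 dpi, and Mrc1 was at -0.54 and rose by 2.19 at 3 dpi. Stab1, Maf and Mrc1 are also known in macrophages. Lyve1, of lymphatic and sinusoidal endothelium, was at -0.19 and -0.27 and was not called. Of 14 arterial and arteriolar genes tested, 5 were called higher and 0 lower at each time.

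The VEGF and angiopoietin pathways held 17 further ligands and co-receptors, of which 6 at 1 dpi and 5 at 3 dpi were called higher, and 1 lower each time. Of the 6 at 1 dpi, 1 was well above background on 0 arrays of either group and another on 2 of 3 arrays of each, so that these calls lie near background. Vegfc, the ligand of Flt4, was at 0.89 at 1 dpi and rose by 2.09 at 3 dpi, Nrp1 rose by 1.18 and 1.57, and Flt1 by 1.16 and 1.51. At 1 dpi both lost the call with array median scaling (0.86 and 0.84) and the deposited log2 table (0.99 and 0.76), and Flt1 also with the mean of all probes (1.00) and, at 3 dpi, with the deposited table (0.50). Angpt1, the activating ligand of Tek, read 2.73, 2.63 and 2.63 in Ctrl, 1.54, 1.62 and 1.59 at 1 dpi, and 1.27, 1.38 and 1.27 at 3 dpi, and fell by 1.08 and 1.36. Angpt2 was at 0.84 at 1 dpi and -0.31 at 3 dpi, where its other probe gave 0.16, and Vegfa at -0.26 and 0.06, although the 4 probes of Vegfa ran from -0.26 to 1.02 at 1 dpi. In the endoglin pathway, with 15 genes tested, 3 went higher and 1 lower by these calls at 1 dpi, and 2 and 0 at 3 dpi. Relative to the median of all genes, 2 were higher and 2 lower at 1 dpi, and 2 and 0 at 3 dpi. Id3 (1.02 at 1 dpi) lost its call there with quantile normalization (0.92), array median scaling (0.71), normexp (0.95) and the deposited table (0.92). Acvrl1, the receptor that acts with endoglin, rose by 1.56 at 1 dpi and was at 0.84 at 3 dpi, and Bmp4 rose by 2.98 and 3.55. Tgfbr1 fell by 1.06 at 1 dpi on its brightest probe, but its 4 probes ran from -1.06 to 1.21, and its sign turned with the mean of all probes (0.41) and with the deposited log2 table (0.14). At 1 dpi 3 of 18 junction partners were called higher and 1 lower, and at 3 dpi 5 and 0. Of 12 endothelial activation genes, 4 and 6 were called higher and 0 lower. The counts relative to the median of all genes were 2 and 4 higher and 0 lower. At 1 dpi Nos2 lost its call with quantile normalization (0.76), array median scaling (0.82), normexp (0.96) and the deposited table (0.76). The same held with the slide as a block (0.66), with the replicate block and without some single arrays. Icam1 lost its 1 dpi call with array median scaling (0.78).

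Markers of several other cell types also changed, some lists up and some down, and their relation to the members was not tested. At 1 dpi 9 of 15 marrow stromal markers were called higher and 1 lower, and at 3 dpi 8 and 1. Their summed scaled intensity, in multiples of the 75th percentile, was 17.2, 16.4 and 16.9 in Ctrl, 54.4, 47.5 and 51.2 at 1 dpi, and 97.6, 89.4 and 96.4 at 3 dpi, with Cxcl12 as the brightest gene. Cxcl12 itself rose by 2.71 and 3.50, while the 5 probes of Lepr ran from 0.42 to 4.07 at 3 dpi. The same sum over 10 osteoblast markers was 4.49, 4.35 and 4.58, then 22.2, 19.7 and 21.5, then 34.9, 34.3 and 37.3, with Col1a1 brightest and 8 genes called higher at 3 dpi.

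The 14 macrophage markers, with Csf1r brightest, summed to 70.9, 62.5 and 60.6 in Ctrl, 88.4, 82.9 and 87.0 at 1 dpi, and 165.6, 162.3 and 158.3 at 3 dpi. Called higher were 5 of them at 1 dpi and 10 at 3 dpi, and called lower 2 and 0. The 10 sinusoidal endothelial markers, with Egfl7 brightest, summed to 8.86, 8.41 and 8.51, then 14.8, 13.1 and 13.2, then 17.9, 15.3 and 15.6. The groups did not overlap in any of these sums. No gene of these lists was missing for lack of signal. The part of stromal, osteoblast and macrophage RNA in the rise of the members was not tested.

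Of the markers of the labelled cell type, Pf4, Itga2b, Gp5 and Gp9 were well above background on all 9 arrays. Of 16 megakaryocyte markers, 0 were called by limma in the comparisons with Ctrl. With the deposited log2 table, however, Vwf was called lower at 3 dpi (-1.36, against -0.05 in the main fit). Relative to the median of all genes, 1 marker was lower at 1 dpi and 0 at 3 dpi. The sum of the 16 markers was 170.8, 151.8 and 150.8 in Ctrl, 161.3, 148.3 and 145.6 at 1 dpi, and 169.3, 166.8 and 165.0 at 3 dpi. The Ctrl arrays overlapped both other groups, while every 3 dpi array lay above every 1 dpi array. Of 15 stem and progenitor markers 0 were called higher, with 4 lower at 1 dpi and 6 at 3 dpi. Of 10 B cell markers 9 and 8 were called lower, with 0 higher. Of 10 erythroid markers 2 were called higher and 7 lower in the first comparison and 0 and 8 in the second, and their sum was 2.24-fold of Ctrl at 1 dpi and 0.365-fold at 3 dpi. That sum is mostly the value of its brightest gene, Hba-a1. The mean scaled log2 intensity of Hba-a1 was 6.35 in Ctrl, 7.70 at 1 dpi and 4.88 at 3 dpi. Of 10 neutrophil markers 2 were called higher at 1 dpi and 0 at 3 dpi. Neither call was kept relative to the median of all genes, with quantile normalization, with array median scaling or in the deposited table. The neutrophil sum, with Mpo brightest, was 1110.4, 1167.2 and 1155.7 in Ctrl, 1920.0, 1791.0 and 1764.3 at 1 dpi, and 1217.8, 1089.5 and 1151.7 at 3 dpi. It was 1.59-fold and 1.01-fold of Ctrl, and lay above the megakaryocyte sum on every array.

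**Figure D4:**
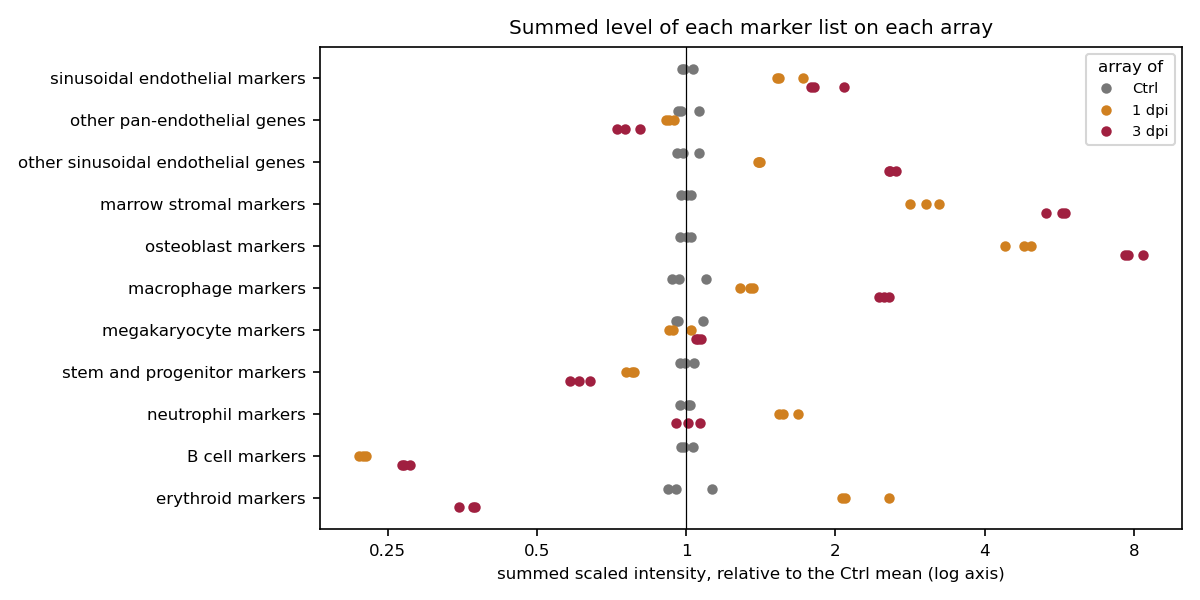
Summed scaled intensity of each marker list on each array, relative to its mean in Ctrl, on a log axis. The sinusoidal endothelial markers reached 1.59-fold and 1.89-fold of Ctrl at 1 and 3 dpi, the marrow stromal markers 3.04-fold and 5.62-fold, and the megakaryocyte markers 0.961-fold and 1.06-fold. Egfl7, the brightest sinusoidal endothelial marker, weighs most in their sum, and its own change was 1.44-fold and 1.14-fold.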

How the data were processed

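Gene expression was measured in mMKs of 3 groups of mice with 3 arrays each, grouped by the sample labels. The authors deposited spot intensity values of each array from Agilent Feature Extraction 10.7.1.1, background-subtracted and not scaled between arrays. For 27275 gene names the authors gave deposited log2 values as well, whose normalization is not described in the sources used here. Their column medians lie between 5.79 and 5.87, their scaling and centring are unknown, and they served as an alternative only. The methods describe an Affymetrix chip, while the files per the file headers are Agilent arrays on mm9. No spot was saturated.

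Control spots and outlier-marked spots were left out, which removed 20 of 56605 probes, and spots of a probe were averaged. Probes were named through their RefSeq accession (32984 probes, GRCm38.p6), and the other 23601 kept the name in the files. Scaled log2 intensities were fitted with limma 3.58.1 in R 4.3.3, all 3 groups in 1 model over 29410 genes, and a separate fit covered every kept probe (15 of the 17 probes of the members). Calls needed an adjusted p (Benjamini-Hochberg) under 0.05 and a change of 2-fold or more. The fit was tested on simulated data, and the outcome is not given here.

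Named genes are all members, of each other list the 4 called genes with the largest change in 1 or 3 dpi against Ctrl among genes well above background in both groups, defining markers of each cell type, and the 5 genes most alike to Cdh5 and to Stab2. Only some of these genes are printed, and 1 result is not reported here. The members and lists were chosen with earlier results of these data known. Alternatives covered normalization, background correction, the deposited table, the filter, the choice of probe, blocks, leaving out each array, the fold minimum and the methods' t-test.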

Additional observations from a re-analysis of the deposited data

Results flagged for a closer look

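The effects against Ctrl at both time points differed in 9 of the 10 members by limma's test of 3 against 1 dpi (adjusted p under 0.05 over all genes), beside 44.6% of all genes, and by at least 2-fold in Stab2. Flt4 and Tek also reached 2-fold with quantile normalization (1.21 and 1.16), array median scaling (1.13 and 1.11) and the deposited log2 table (1.21 and 1.16). The log2 difference was 0.67 in Cdh5, 0.77 in Kdr, 0.94 in Flt4, 0.92 in Tek, 0.73 in Emcn, 1.53 in Stab2 and 0.58 in Plvap, all higher at 3 dpi except that with normexp background correction Flt4 turned to -0.32 and Tek shrank to 0.20 (adjusted p = 0.0669), and -0.58 in Eng and -0.34 in Egfl7, both lower at 3 dpi. In the remaining member, Pecam1, it was -0.09 (adjusted p = 0.322). Over all genes the median difference was -0.11. Outlying arrays were not tested for, with 3 arrays in a group. Ctrl replicate 1 correlated at 0.987 with each other Ctrl array, while the other pairs within a group were at 0.995 to 0.998.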

How the results depend on the processing

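The next counts cover 19 of the 22 settings, without those lacking a minimum fold change or using the methods' t-test. Of the fold changes of members, 180 kept their side of the threshold in 1 dpi against Ctrl over these settings, 4 became called and 5 lost the call. At 3 dpi 188 kept it and 1 lost it, and between 3 and 1 dpi 179 kept it and 10 became called. The sign of a member changed 13 times, 0 of them where it was called: Pecam1 1, 2 and 1 times in 1 dpi against Ctrl, 3 dpi against Ctrl and 3 against 1 dpi, Tek 8 times in 3 dpi against Ctrl (lowest -0.11), and Flt4 between 3 and 1 dpi with normexp (-0.32). With quantile normalization 3 members were called between 3 and 1 dpi, beside 2573 of all genes, and the members' median at 3 dpi was 1.59. With array median scaling the medians were 0.35, 1.56 and 0.89 in 1 dpi against Ctrl, 3 dpi against Ctrl and 3 against 1 dpi. In the last, 3 members were called, beside 2594 of all genes. With normexp the medians were 0.97 at 3 dpi and 0.39 between 3 and 1 dpi, and 2875, 1299 and 1689 of all genes were called. The deposited table gave 3 members between 3 and 1 dpi, beside 2663 of 21495 genes, and a median of 1.59 at 3 dpi. Signs changed there in Jam2 (-0.76 at 1 dpi, -0.56 at 3 dpi), Tgfbr1 (0.14 at 1 dpi, -0.55 between 3 and 1 dpi) and Lepr (3.52 between 3 and 1 dpi). Of all genes called at 1 dpi, 50.1% were higher there.

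Without a filter, 4489 of all genes were called between 3 and 1 dpi. Probes well above background on every array gave a median of 1.35 at 3 dpi and no value for Flt4. They gave 3, 5 and 1 of 9 members called, beside 3133, 1730 and 1776 of 24040 genes. With the mean of all probes the median at 1 dpi was 0.74. Among values of named genes called in either fit, Tgfbr1 changed sign (0.41 at 1 dpi, -0.49 between 3 and 1 dpi). Some values called in neither fit changed sign too, among them Adgrf5 between 3 and 1 dpi (-0.18). Without a minimum fold change 9, 6 and 9 members and 16443, 9416 and 13125 of all genes were called. The methods' t-test gave 10, 7 and 9 members and 15674, 10523 and 16909 of all genes unadjusted, and 9, 6 and 8 members and 12626, 7120 and 14319 of all genes with Benjamini-Hochberg adjustment.

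With replicate number as a replicate block, 4273, 2498 and 2494 of all genes and 4, 6 and 1 members were called. Deviations of arrays with the same number correlated from -0.11 to 0.13, so the numbers were not used to pair samples. An alternative chosen after seeing the data took the first position number of each array, the same for all 1 dpi arrays, as a block. It called 7055 of all genes and 5 members at 1 dpi, with Tek newly called lower (-1.03). Between 3 and 1 dpi it called 2 members and 3583 of all genes. With each array left out in turn, between 3 and 1 dpi 1 to 2 members and 2269 to 2881 of all genes were called. The members' median ran from 0.61 to 0.76 there. The cause of these shifts was not tested.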
